A study of Solanum lycopersicum with 24 samples.

Results

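Leaves of tomato plants that had been hardened in the cold and then stressed at a still lower temperature (the Combo condition) were compared between their polysome and monosome fractions. The members are the 4 Combo fraction libraries, 2 labelled Combo_poly and 2 labelled Combo_mono, out of 24 libraries in the series. A polysome is an mRNA with several ribosomes on it, whereas a monosome holds 1. The question was which transcripts lie on single ribosomes and which on several in leaves that have gone through both cold treatments.

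All plants were *Solanum lycopersicum* of the selection line YaLF, 28 days old, grown at 25 °C by the sample labels. Combo plants received 5 days of hardening at 6 °C by the labels and then 2 h at 0 °C. Control plants received neither treatment, Hardening plants received the 5 days alone and Stress plants the 2 h alone. The methods of the paper give another hardening temperature, and a control temperature that differs from the growth temperature. They also place the harvest of Stress and Combo leaves after the 2 h treatment, while Control and Hardening leaves were taken at its start. Any difference between Combo and Control or Hardening therefore cannot be told apart from the time of collection. The comparison of polysome with monosome within Combo does not cross collection times.

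An mRNA is loaded by initiation, when the small ribosomal subunit finds the start codon, and each further ribosome that starts before the first has finished adds to the polysome. A transcript that initiates often is found deep in a sucrose gradient, whereas a transcript that initiates rarely, has a short reading frame or is held at its start lies near the monosome peak. In plants, low temperature slows elongation and lowers overall protein synthesis, and the mRNAs of light-harvesting proteins, ribosomal proteins and stress-response regulators are known to be loaded differently from each other under stress. The extraction buffer held cycloheximide and chloramphenicol, which stop cytosolic and organellar ribosomes on their mRNAs.

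The values are TPM (a transcript's share of the library after correction for its length) for 45845 RefSeq transcripts. TPM keep no depth, so no counting error can be given and precision rests on 2 libraries a fraction. The column headings call these biological replicates and the paper calls them technical repetitions, so their spread may be technical. Scaling for composition gave factors between 1.58 and 1.63 for the 4 Combo libraries, so their TPM as deposited can be read side by side. In the Control fractions the factors lay between 0.509 and 0.574. From 18183 to 18415 transcripts had at least 1 TPM in a Combo fraction library, and from 12922 to 13868 in a Control fraction library. The 3 transcripts XM_010316700.1, XR_003244938.1 and XR_003244462.1 together took 10.4% and 2.61% of the TPM in the Combo monosome libraries, and 3.87% and 6.57% in the polysome libraries. In the Control fraction libraries they took from 33.4% to 42%. Transcripts that the names table marks as ribosomal RNA summed to 4140 and 1300 TPM in the Combo monosome libraries. In the Combo polysome libraries they summed to 7898 and 6067 TPM, and their part in the results was not tested.

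LE25, a late embryogenesis abundant protein gene of dehydrated tissue, lay between 420.6 and 765.4 TPM in the Combo fractions and between 0.735 and 3.20 TPM in the Control fractions. The fractions labelled Hardening had from 2.43 to 15.4 TPM of LE25 although Hardening total RNA had from 861 to 1003 TPM. The fractions labelled Stress had from 497 to 820 TPM, although Stress total RNA had from 0.925 to 1.43 TPM. The Hardening and Stress fraction libraries thus went against their labels. In the comparison of Combo fractions they enter the estimate of the spread and the common scaling, which the level filter uses. The counts below are also given without them. The 23 mesophyll marker transcripts (Rubisco small subunits, light-harvesting and photosystem proteins) summed to 24780 and 37950 TPM in the Combo monosome libraries and to 31010 and 32680 TPM in the polysome libraries. The potassium channel gene LKT1 was the only name matched for the guard cell list and lay between 0.847 and 1.40 TPM. Whether LKT1 marks guard cells was not tested. The trichome monoterpene synthase gene MTS1 lay at or below 0.0984 TPM. The 4 root markers summed to between 31.6 and 48.1 TPM, with 2 of them at 0. The 7 fruit marker transcripts, several of them forms of Psy1, summed to between 66.8 and 90.3 TPM, with 3 at 0. Most of this sum was 1 Psy1 form, with 65.2 to 90.1 TPM.

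The polysome and monosome fractions of hardened and stressed leaves held largely the same transcripts at much the same levels. Transcripts were tested if their scaled TPM averaged 1 or more across the Combo fractions. Of these 16691 transcripts, 88 were higher in polysomes and 14 higher in monosomes, which is 0.527% and 0.0839% of those tested (0.611% in all). In all 102 the libraries of the fractions did not overlap, as was the case, in either direction, for 49.3% of those tested. A call required a log2 difference over 1 in size and an adjusted p under 0.05 in limma with Benjamini-Hochberg adjustment, fitted on log2(scaled TPM + 1) of the 16 monosome and polysome libraries. Without regard to the size of the difference, 110 transcripts had an adjusted p under 0.05 and 1373 an unadjusted p under 0.05. The median difference over all tested transcripts was 0.00.

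The count of calls rested on each of the 4 libraries. It was 102 with all libraries, 15 without Combo monosome replicate 1, 37 without Combo monosome replicate 2, 72 without Combo polysome replicate 1 and 39 without Combo polysome replicate 2. A fit of the 4 Combo libraries alone called 47 transcripts, of which 27 were among the 102, and a fit of the Combo and Control fractions alone called 18. Every one of the 102 called transcripts that could be tested kept its direction in each of these fits. This was close to fixed in advance, since in all 102 the libraries of the fractions did not overlap.

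**Figure D1:**
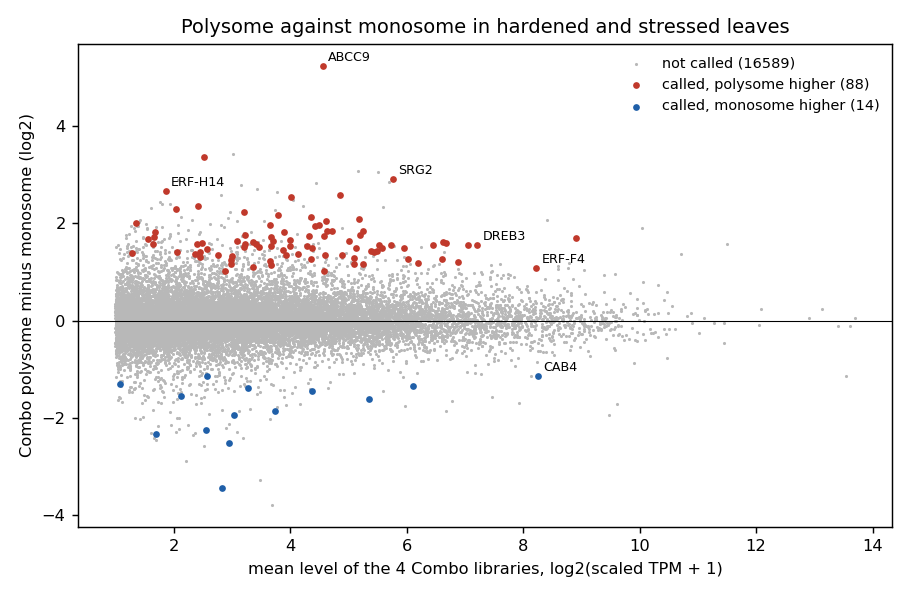
Polysome minus monosome difference (vertical axis, log2) against mean level (horizontal axis, log2 of scaled TPM + 1) for the 16691 transcripts tested in Combo leaves. Red points are the 88 transcripts called higher in polysomes, blue points the 14 called higher in monosomes, and grey points those not called, which spread on both sides of 0.

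The distance between the fractions was little larger than the distance between replicates. The median absolute log2 difference over transcripts was 0.23 between the 2 Combo monosome libraries and 0.19 between the 2 Combo polysome libraries. Across the fractions it ran from 0.24 to 0.30. In Control leaves the same measure was 0.44 within monosomes and 0.31 within polysomes, and from 0.58 to 0.61 across them. The SD of the polysome minus monosome difference over all tested transcripts was 0.47 in Combo and 0.96 in Control.

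Of the 88 polysome calls 14 have a symbol in the names table, and 7 of these 14 encode transcription factors of the AP2/ERF, WRKY or NAC families, which act in stress responses. These families made up 65 of the 1291 tested transcripts with a symbol (5.03%). Of the 7, ERF-H14 and ERF-D4 reached the minimum level for testing only through their polysome libraries. DREB3, of the family that binds dehydration-responsive elements, had 129 and 103 TPM in the monosome libraries and 458 and 255 TPM in the polysome libraries. Its polysome minus monosome difference was 1.55 ± 0.29 on the log2 scale (SE, limma adjusted p = 0.0441), with 2 libraries a fraction. Each SE given here comes from the variance shared by all conditions in the fit, not from the Combo libraries alone. For DREB3 the SE in Control was therefore also 0.29. ERF-F4, an ethylene response factor, had 263 and 353 TPM in monosomes and 697 and 598 TPM in polysomes, a difference of 1.07 ± 0.19 (adjusted p = 0.0329). The polysome libraries of both factors lay above both monosome libraries.

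ERF3, another ethylene response factor, had 55.4 and 62.7 TPM in monosomes and 166 and 125 TPM in polysomes, a difference of 1.26 (limma adjusted p = 0.0378). ERF-H14 was listed at 0 and close to 0 in the monosome libraries and had 8.25 and 8.72 TPM in the polysome libraries. ERF-H14 has 2 tested transcripts, and their sum differed by 1.28 between the fractions and was also called. ERF-D4 had 0.943 and 0.234 TPM in monosomes and 4.08 and 3.98 TPM in polysomes. In all, 5 of 47 tested transcripts of the ethylene response and AP2 list were called higher in polysomes and none higher in monosomes, against 0.527% and 0.0839% of all tested transcripts. Of these 5, ERF-H14 and ERF-D4 reached the minimum level for testing only through their polysome libraries, so they could hardly be called the other way. The median difference of the list was 0.06, so most of its members did not share the shift of these 5. The list's median turned below 0 with a minimum level of 10 and without Combo polysome replicate 1.

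WRKY41, of a plant-specific family that binds W-box elements, had 40.6 and 34.8 TPM in monosomes and 141 and 83.8 TPM in polysomes. Its difference was 1.48 ± 0.27 (limma adjusted p = 0.0420). NACMTF3, a factor of the NAC family, had 13.5 and 18.1 TPM in monosomes and 44.2 and 50.5 TPM in polysomes (adjusted p = 0.0253). For both genes the fractions did not overlap. The calls of DREB3 and WRKY41 were lost in 9 and 8 of the 16 alternative analyses, and those of NACMTF3 and ERF-F4 in 6 each.

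The named transcript with the smallest adjusted p was SRG2, for which the names table gives no role. SRG2 had 15.8 and 22.3 TPM in the monosome libraries and 159 and 144 TPM in the polysome libraries. The difference was 2.90 ± 0.18 (limma adjusted p = 8.54e-05), and SRG2 was called in each of the 16 alternative analyses. CZFP1 had 62.9 and 89.3 TPM in monosomes and 271 and 201 TPM in polysomes, a difference of 1.61 ± 0.26 (adjusted p = 0.0195), and its call was lost in 5 of the 16 alternative analyses. ER5, an ethylene-responsive gene for a protein related to late embryogenesis abundant proteins, had 14.5 and 14.5 TPM in monosomes and 41.3 and 49.2 TPM in polysomes. Its difference of 1.53 ± 0.17 (adjusted p = 0.00342) was lost as a call only in the fit of the 4 Combo libraries alone (adjusted p = 0.0591).

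Other named polysome calls belong to transport and metabolism. LeSUT1, the sucrose transporter that loads the phloem and the only phloem marker found in the names table, had 33.0 and 39.0 TPM in monosomes and 81.5 and 117 TPM in polysomes. Its difference was 1.40 ± 0.23 (limma adjusted p = 0.0219), and the call was lost in 5 of the 16 alternative analyses. Whether phloem tissue took a larger share of the polysome preparations was not tested, and fewer cells of a type cannot be told apart from less RNA a cell in bulk leaves. loxD, a lipoxygenase gene of jasmonate synthesis, had 8.69 and 8.91 TPM in monosomes and 19.9 and 21.7 TPM in polysomes, a difference of 1.10. AO had 5.21 and 3.88 TPM in monosomes and 12.6 and 15.3 TPM in polysomes.

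The largest fitted difference, 5.22 for XM_026032760.1 of ABCC9, belonged to a transcript form and not to the gene. This form of the ABC transporter gene had 0.0197 and 0.752 TPM in monosomes and 62.8 and 81.4 TPM in polysomes. The other form, XM_004247379.4, had 160 and 154 TPM in monosomes and 85.6 and 89.6 TPM in polysomes. The sum of both differed by 0.01 between the fractions and was not called. Of the 88 polysome calls 80 had a single tested transcript, for which such a split could not be seen. Of the other 8, with several tested forms, 7 were not called for the sum over their gene and ERF-H14 alone was.

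The most abundant polysome call had no symbol. XM_010318973.1 had 308 and 411 TPM in monosomes and 1047 and 1299 TPM in polysomes, a difference of 1.70 ± 0.26 (limma adjusted p = 0.0160), and its call was lost in 5 of the 16 alternative analyses. XM_026031743.1, also without a symbol, had 98.8 and 116 TPM in monosomes and 336 and 296 TPM in polysomes. The non-coding XR_003246715.1, a small nucleolar RNA by the names table, was listed at 0 and had 1.53 TPM in monosomes and had 5.38 and 5.63 TPM in polysomes. It was 1 of 905 tested predicted non-coding RNAs called higher in polysomes.

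**Figure D2:**
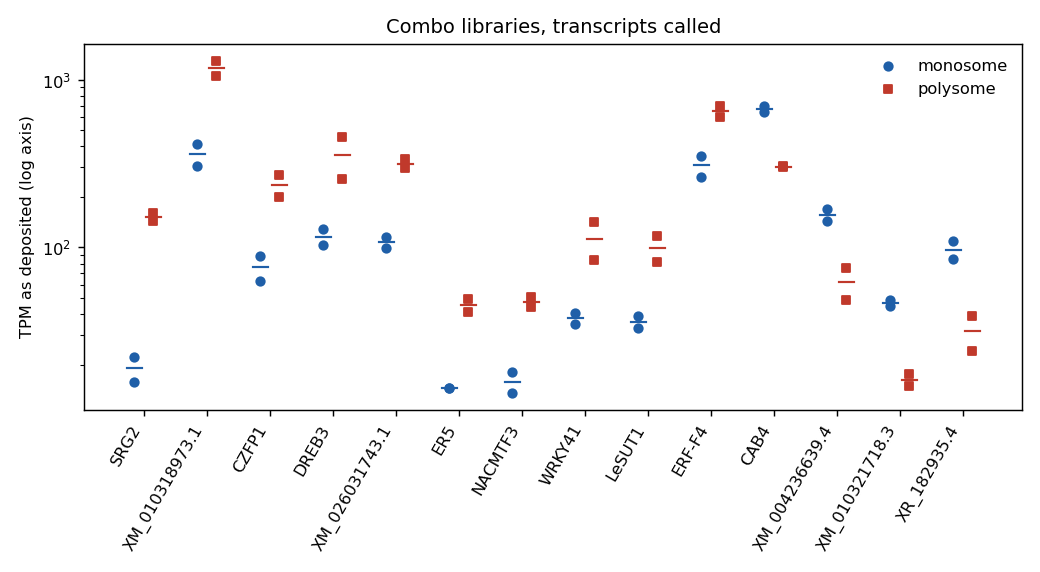
TPM as deposited (vertical log axis) of 14 called transcripts in the 2 Combo monosome libraries (blue circles) and the 2 Combo polysome libraries (red squares), with short lines at the means. In each transcript the 2 libraries of one fraction lie above both libraries of the other, the polysome libraries in the first 10 and the monosome libraries in the last 4.

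Beyond the chosen names, 12 of the 102 calls remained called without each of the 4 Combo libraries in turn. They were picked out after their values were seen, and comprise 11 polysome calls, among them SRG2, ER5 and ERF-H14, and 1 monosome call. XM_004240360.4 had 10.8 and 12.6 TPM in monosomes and 80.8 and 74.8 TPM in polysomes, a difference of 2.57 ± 0.21. XM_004229361.4 had 11.1 and 10.1 TPM in monosomes and 56.3 and 48.2 TPM in polysomes. XM_004233640.4 had 22.5 and 18.9 TPM in monosomes and 85.7 and 99.6 TPM in polysomes. These 3 carry no symbol, and in each both polysome libraries lay above both monosome libraries. XM_004246293.4 was near 0 in monosomes and had 13.0 and 17.2 TPM in polysomes, but the sum over its gene was not called (difference -0.11).

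Of the 14 transcripts called higher in monosomes, CAB4 was the only one with a symbol. CAB4 encodes a chlorophyll a/b-binding protein of the light-harvesting antenna. It had 638 and 700 TPM in the monosome libraries and 306 and 300 TPM in the polysome libraries, a difference of -1.14 ± 0.22 (limma adjusted p = 0.0465). The call of CAB4 was lost in 10 of the 16 alternative analyses. The lncRNA XR_182935.4 had 109 and 84.7 TPM in monosomes and 39.2 and 24.0 TPM in polysomes, a difference of -1.60 ± 0.28 (adjusted p = 0.0297). XM_004236639.4 had 170 and 143 TPM in monosomes and 75.1 and 48.6 TPM in polysomes. These 2 calls were lost in 5 and 7 of the 16 alternative analyses.

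Transcript forms accounted for much of the monosome list. Of the 14 calls, 8 belonged to genes with more than 1 tested transcript, and none of these 8 was called for the sum over its gene. XM_010321718.3 had 44.9 and 48.3 TPM in monosomes and 17.7 and 14.9 TPM in polysomes, a difference of -1.44 ± 0.21. The sum with XM_010321717.3 of the same gene differed by 0.15 in the other direction. XM_026030089.1, the monosome call that remained without each library, had 6.14 and 8.03 TPM in monosomes and 0.244 and 0.0187 TPM in polysomes, a difference of -2.32.

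Most polysome calls were transcripts with a higher level in Combo than in Hardening total RNA. The change in total RNA was measured in other libraries, 2 of Combo and 2 of Hardening total RNA, and played no part in the polysome calls. Of the 88 polysome calls, 63 (71.6%) had risen by more than 1 on the log2 scale from Hardening to Combo total RNA, against 2.18% of all tested transcripts. Of the 14 monosome calls none had risen by that much, and 3 had fallen by more than 1, against 2.69% of all tested transcripts. In all 63 the 2 Combo total RNA libraries lay above the 2 Hardening libraries, as in 353 of the 364 tested transcripts that rose by more than 1. The relation was noticed in the data, is described here and was not tested.

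In total RNA, 364 tested transcripts had risen by more than 1. Their median polysome minus monosome difference was 0.99, and 338 of them (92.9%) were above 0, against 50.3% of all tested transcripts. Both polysome libraries lay above both monosome libraries in 303 of the 364 (83.2%), against 24.3% of all tested transcripts. The reverse held for 13 (3.57%). In limma 63 of the 364 (17.3%) were called higher in polysomes and none higher in monosomes, against 0.527% and 0.0839% of all tested transcripts. The median stayed between 0.92 and 1.08 when each of the 4 Combo libraries was left out, and was 0.99 in a fit of those 4 alone.

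The difference was graded. Transcripts that had changed by less than 0.5 in total RNA, 13177 in number, had a median polysome minus monosome difference of 0.00. The median was 0.43 for the 1266 that rose by 0.5 to 1, 0.97 for the 343 that rose by 1 to 2 and 1.83 for the 21 that rose by 2 or more. In the other direction it was -0.27 for the 1435 that fell by 0.5 to 1 and -0.41 for the 414 that fell by 1 to 2. It was -0.39 for the 35 that fell by more than 2, so the step did not grow further on that side. In the Control fractions the medians of these same 7 groups lay between 0.03 and 0.23 and followed no such order.

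**Figure D3:**
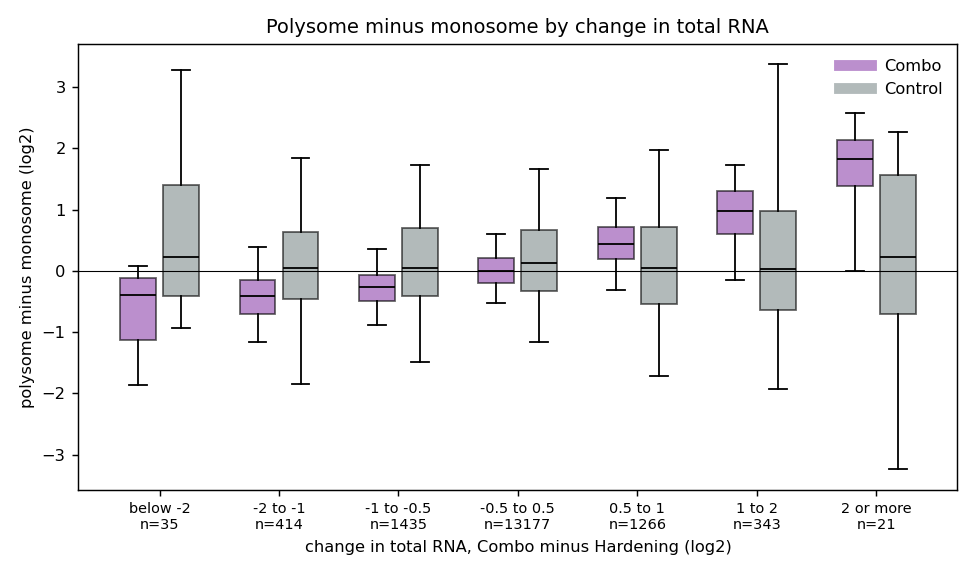
Polysome minus monosome difference (vertical axis, log2) of tested transcripts grouped by their change in total RNA from Hardening to Combo (horizontal axis, log2, with the number of transcripts), for Combo (purple) and Control (grey) fractions. Boxes span the quartiles with a line at the median and whiskers run from the 5th to the 95th percentile. The Combo medians go from -0.39 at the left to 1.83 at the right, whereas the Control medians stay between 0.03 and 0.23.

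In the risen set, polysome levels lay near those of Combo total RNA and monosome levels near those of Hardening total RNA. For the 364 risen transcripts the median of polysome minus Combo total RNA was -0.16 and that of monosome minus Combo total RNA was -1.24. Against Hardening total RNA the same medians were 1.14 for polysomes and 0.10 for monosomes. Over all tested transcripts the 4 medians lay between 0.08 and 0.11. These values share the total RNA libraries that chose the set and are a description. CZFP1, a member of the set, departed from these medians. On the scaled values its polysome minus Combo total RNA difference was 0.76. Its monosome minus Combo total RNA difference was -0.85.

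For the 449 transcripts that had fallen by more than 1 in total RNA, the median polysome minus monosome difference was -0.41 and 74 (16.5%) were above 0. Both monosome libraries lay above both polysome libraries in 246 of the 449 (54.8%), against 25% of all tested transcripts. Their median against Hardening total RNA was 0.12 in monosomes and -0.44 in polysomes. Of the 449, 3 were called higher in monosomes and 1 higher in polysomes, against 0.0839% and 0.527% of all tested transcripts. Most of these shifts were thus below the threshold. Both fractions held these transcripts at more than the Combo total RNA level, with medians of 1.42 for monosomes and 0.89 for polysomes (0.08 and 0.10 over all tested transcripts). The set was chosen for low Combo relative to Hardening total RNA, which favours such an excess. These values and those against Hardening total RNA are a description.

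Of the 45 risen transcripts with a symbol, 32 averaged 10 TPM or more over both fractions. In all 32 both polysome libraries lay above both monosome libraries, as in 83.2% of the risen set they were taken from and 24.3% of all tested transcripts. Some passed the level only through polysomes, such as MMP2 with means of 4.89 TPM in monosomes and 17.0 TPM in polysomes, so the filter favoured this direction. The 32 include genes of stress hormones. NCED1, the enzyme that commits carotenoids to abscisic acid synthesis, had 46.4 and 44.2 TPM in monosomes and 110 and 110 TPM in polysomes, a difference of 1.24 (limma adjusted p = 0.110). JAZ2, a repressor of jasmonate signalling, had 37.0 and 35.0 TPM in monosomes and 114 and 52.6 TPM in polysomes. Its relative SLJAZ3 had 23.9 and 28.7 TPM in monosomes and 48.6 and 48.5 TPM in polysomes. MPK3, a stress-activated mitogen-activated protein kinase, had 33.5 and 42.0 TPM in monosomes and 68.2 and 83.4 TPM in polysomes. None of these 4 passed the test, and in each the fractions did not overlap.

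Protective and wall proteins were also among the 32. SAP11, a stress-associated zinc finger protein, had 181 and 201 TPM in monosomes and 393 and 468 TPM in polysomes, a difference of 1.16 (limma adjusted p = 0.0546). SN2, a snakin peptide with antimicrobial activity, had 1086 and 1947 TPM in monosomes and 3082 and 4616 TPM in polysomes. AGP-1, an arabinogalactan protein of the cell surface, had 479 and 412 TPM in monosomes and 898 and 995 TPM in polysomes. TAS14, a dehydrin, had 138 and 84.5 TPM in monosomes and 211 and 178 TPM in polysomes, the smallest shift of these 4 at 0.83. SN2 had an adjusted p of 0.221, AGP-1 of 0.146 and TAS14 of 0.646 in limma.

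Under the same conditions 34 of the 48 fallen transcripts with a symbol could be named. Some passed the level only through monosomes, such as PTC52 with means of 16.5 TPM in monosomes and 9.53 TPM in polysomes. Of the 34, 19 had both monosome libraries above both polysome libraries and 3 the reverse. Over the whole fallen set these shares were 54.8% and 4.23%, and over all tested transcripts 25% and 24.3%. PR1b1, a pathogenesis-related protein gene and among the most abundant transcripts of the leaf, had 29873 and 21933 TPM in monosomes and 16151 and 8555 TPM in polysomes. Its difference of -1.13 did not pass the test (limma adjusted p = 0.144). OPR1, an oxophytodienoate reductase gene, had 22.2 and 25.3 TPM in monosomes and 15.3 and 8.89 TPM in polysomes. F3H of flavonoid synthesis was an exception to this direction, with 45.1 and 44.6 TPM in monosomes and 100 and 76.7 TPM in polysomes. ELIP, the early light-induced protein of thylakoids, fell by 2.51 in total RNA, yet its libraries overlapped, with 503 and 1065 TPM in monosomes and 639 and 537 TPM in polysomes.

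The gene lists were built from symbols, and few of their members passed the test. Light-harvesting and photosystem transcripts had the lowest median of the lists. Of 22 tested, 21 were below 0 with a median of -0.55 (0.00 over all tested transcripts), and CAB4 was called (0.0839% of all tested transcripts were called higher in monosomes). In 17 of the 22 both monosome libraries lay above both polysome libraries, against 25% of all tested transcripts. LHCP had 110 and 109 TPM in monosomes and 57.3 and 65.6 TPM in polysomes, a difference of -0.83 that had a limma adjusted p of 0.0477 but did not reach the required size. CAB7 was alike, with 166 and 202 TPM in monosomes and 102 and 108 TPM in polysomes (adjusted p = 0.0461). The median of this list stayed between -0.65 and -0.40 in 15 alternative analyses. Its median change in total RNA from Hardening to Combo was -0.27, and 2 members had fallen by more than 1.

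Proteins of the photosystem II oxygen-evolving complex lay closer to 0 than the antenna proteins. PSBP had 574 and 561 TPM in monosomes and 481 and 524 TPM in polysomes, and PsbQ had 747 and 753 TPM in monosomes and 701 and 653 TPM in polysomes. PSBR, the most abundant member, had 2852 and 5428 TPM in monosomes and 3740 and 3917 TPM in polysomes, and its fractions overlapped. In the Rubisco and carbon fixation list none of 9 was called and the median was 0.01. The Rubisco small subunit transcript RBCS4 had 9982 and 16976 TPM in monosomes and 15063 and 15696 TPM in polysomes, whereas rbcS1 had 1192 and 1790 TPM in monosomes and 922 and 996 TPM in polysomes.

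Pathogenesis-related and proteinase inhibitor transcripts were on the same side as the antenna proteins. Of 17 tested none was called, 13 were below 0 and the median was -0.31. NP24-I, an osmotin-like thaumatin protein gene, had 468 and 430 TPM in monosomes and 304 and 217 TPM in polysomes, a difference of -0.81 (limma adjusted p = 0.130). The chitinase gene CHI3 had 12794 and 11364 TPM in monosomes and 13809 and 11301 TPM in polysomes, and its fractions overlapped. The median change in total RNA of this list was -0.63, and 4 members had fallen by more than 1.

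Components of the translation machinery lay near 0. Of 7 ribosomal protein transcripts none was called, and their differences ran from -0.26 to 0.15. Of 9 translation factor transcripts none was called, with differences from -0.37 to 0.20. EF-1-alpha (NM_001247106.2, LeEF-1 in the names table), the factor that brings aminoacyl-tRNA to the ribosome, had 1372 and 2117 TPM in monosomes and 1927 and 1807 TPM in polysomes. The ubiquitin fusion transcript ubi3 had 3062 and 3168 TPM in monosomes and 3169 and 2853 TPM in polysomes. The SE of the difference was 0.24 for EF-1-alpha and 0.21 for ubi3. The proteasome and ubiquitin list (18 tested, median -0.07) and the tubulin, actin and histone list (8 tested, median -0.13) had no calls.

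No member of the cold and dehydration list was called, although most differences were above 0. ER5 and DREB3, called above, are not on this list. Of 13 tested 11 were above 0, with a median of 0.64, and 3 had risen by more than 1 in total RNA. CBF1, the transcription factor that heads the cold response, had 2.09 and 2.83 TPM in monosomes and 14.7 and 6.01 TPM in polysomes, a difference of 1.45 ± 0.30 (limma adjusted p = 0.0597). It passed the test with TPM as deposited, with the sum per gene and without Combo polysome replicate 2. ICE1A, the factor upstream of CBF genes, had 94.4 and 76.4 TPM in monosomes and 102 and 90.0 TPM in polysomes, and its fractions overlapped. DHN, a dehydrin gene, had 447 and 449 TPM in monosomes and 806 and 790 TPM in polysomes, and LEA14 had 300 and 343 TPM in monosomes and 595 and 468 TPM in polysomes. LE25 had 614 and 421 TPM in monosomes and 648 and 765 TPM in polysomes, a difference of 0.46.

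Cell wall enzymes and expansins showed the same direction. Of 26 tested 23 were above 0 with a median of 0.56 and none was called. XTH3, a xyloglucan-modifying enzyme gene, had 40.5 and 41.9 TPM in monosomes and 98.2 and 103 TPM in polysomes, and tXET-B1 had 31.6 and 35.5 TPM in monosomes and 65.1 and 65.9 TPM in polysomes. Of 22 aquaporin and transporter transcripts 19 were above 0 (median 0.34), with LeSUT1 called. Over all tested transcripts 50.3% were above 0 and 0.527% were called higher in polysomes. PIP1-5, a plasma membrane aquaporin, had 887 and 1048 TPM in monosomes and 1069 and 1387 TPM in polysomes. The medians of both lists stayed above 0 in 15 alternative analyses.

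Among regulator families, 13 of 15 WRKY transcripts were above 0 (median 0.69, 1 called) and 6 of 7 NAC transcripts (median 0.44, 1 called), where 50.3% of all tested transcripts were above 0 and 0.527% were called higher in polysomes. WRKY31 had 73.9 and 69.6 TPM in monosomes and 153 and 116 TPM in polysomes, a difference of 0.88 with an adjusted p of 0.0275 in limma that did not reach the required size. Heat shock transcripts had a median of 0.40, with 11 of 14 above 0 and none called. Hsc70.1, a constitutive chaperone, had 311 and 339 TPM in monosomes and 489 and 544 TPM in polysomes, and HSP17.4, a small heat shock protein, had 5.13 and 13.2 TPM in monosomes and 17.7 and 37.5 TPM in polysomes. The MYB (5 tested), bZIP (8), auxin (26), redox (31) and polyamine (6) lists had no calls and medians of 0.49, 0.19, -0.11, 0.06 and 0.00. The list of plastid gene names matched 5 transcripts, without a call.

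Of 905 tested predicted non-coding RNAs 1 was called in each direction, with a median of -0.10, against 0.527% of all tested transcripts called higher in polysomes and 0.0839% in monosomes. Both monosome libraries lay above both polysome libraries in 273 of the 905 and the reverse held for 151, against 25% and 24.3% of all tested transcripts. Of 44 curated non-coding RNAs none was called. Curated mRNAs had 17 polysome calls and 1 monosome call among 1778, and predicted mRNAs 70 and 12 among 13964.

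**Figure D4:**
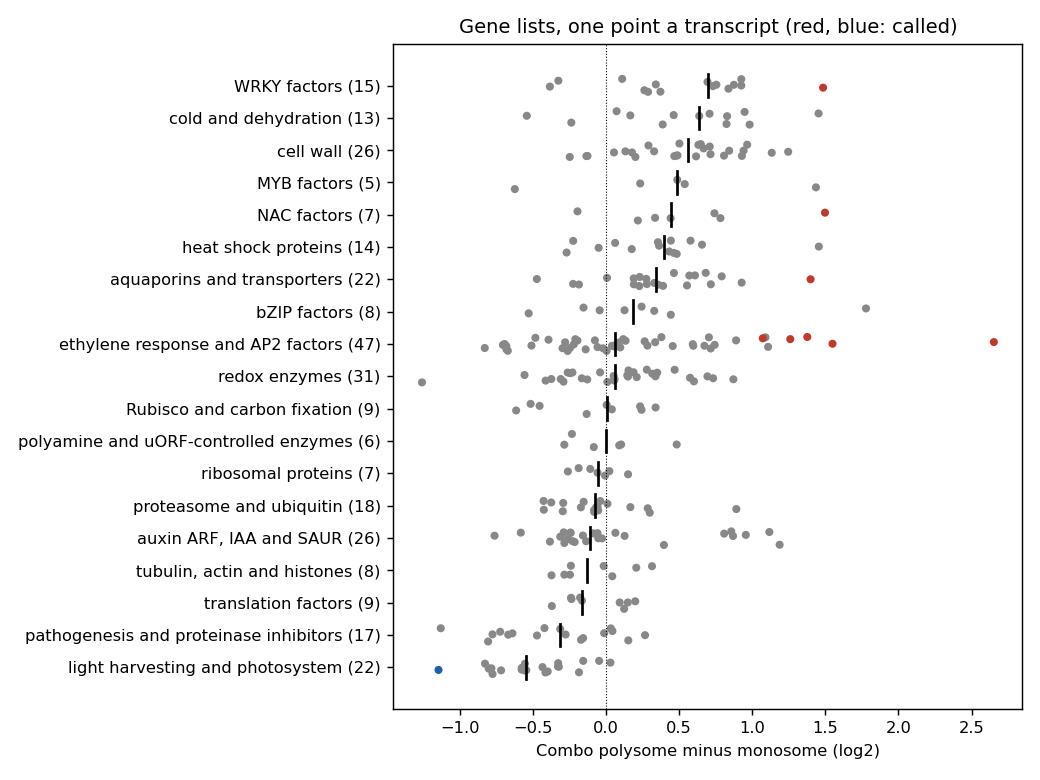
Combo polysome minus monosome difference (horizontal axis, log2) of each tested transcript in 19 gene lists, ordered by the median (black bar), with the number of transcripts in brackets. Red points are called higher in polysomes, the blue point (CAB4) is called higher in monosomes. The light-harvesting list lies lowest with a median of -0.55 and the WRKY list highest with a median of 0.69.

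The same contrast in Control leaves, in the same fit, gave more calls. There 1744 transcripts (10.4%) were higher in polysomes and 871 (5.22%) higher in monosomes. The Control fractions also differed from Combo in composition and in the number of transcripts found, as given above. The shared estimate of the spread was applied to both, although the Control replicates lay farther apart. The part of these differences in the counts and in the interaction below was not tested. Of the 88 Combo polysome calls 25 (28.4%) were also polysome calls in Control, which is 1.43% of the Control polysome calls, 19 were monosome calls in Control and 44 were not called there. The Control polysome calls had a median difference of 1.53 in Control and 0.07 in Combo. The Control monosome calls had medians of -1.42 and 0.04.

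The difference between the 2 conditions was itself tested as an interaction term in limma. It was higher in Combo for 621 transcripts (3.72%) and lower for 886 (5.31%), 9.03% in all, with a median over all tested transcripts of -0.14. Among the 88 Combo polysome calls it was called higher for 53 and lower for 7. Among the 14 monosome calls it was called lower for 10 and higher for 1. Both sets were chosen by the Combo difference, which is a part of the interaction. These directions were therefore largely set by that choice and are a description. With the Combo and Control fractions alone the interaction called 287 higher and 402 lower. Leaving out single libraries moved the sum of both from 658 (without Combo monosome replicate 2) to 2321 (without Control monosome replicate 2).

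Several named transcripts were on opposite sides in the 2 conditions. ER5 had 63.8 and 58.6 TPM in Control monosomes and 26.3 and 23.9 TPM in Control polysomes, and its difference was -1.31 in Control against 1.53 in Combo (interaction 2.84 ± 0.24, limma adjusted p = 0.000198). WRKY41 had 65.8 and 87.1 TPM in Control monosomes and 34.7 and 38.7 TPM in Control polysomes, and NACMTF3 had 7.89 and 11.7 TPM in monosomes and 3.66 and 3.36 TPM in polysomes. Their interactions were 2.57 (adjusted p = 0.00301) and 2.87 (adjusted p = 0.00103). CAB4 had 2590 and 1961 TPM in Control monosomes and 5384 and 5435 TPM in Control polysomes, and its interaction was -2.36 ± 0.31 (adjusted p = 0.00146). In the light-harvesting list the interaction was called lower for 12 of 22 and higher for none, against 5.31% and 3.72% of all tested transcripts.

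CBF1, in contrast, had 4.32 and 3.91 TPM in Control monosomes and 88.0 and 67.5 TPM in Control polysomes, a difference of 4.02, and its interaction was -2.57 (limma adjusted p = 0.00431). LeSUT1 and ERF-F4 kept their sides, with differences of 1.55 and 1.15 in Control and interactions of -0.15 and -0.08 that did not pass the test (SE 0.32 and 0.26). SRG2 was polysome-called in both, at 1.96 in Control and 2.90 in Combo.

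**Figure D5:**
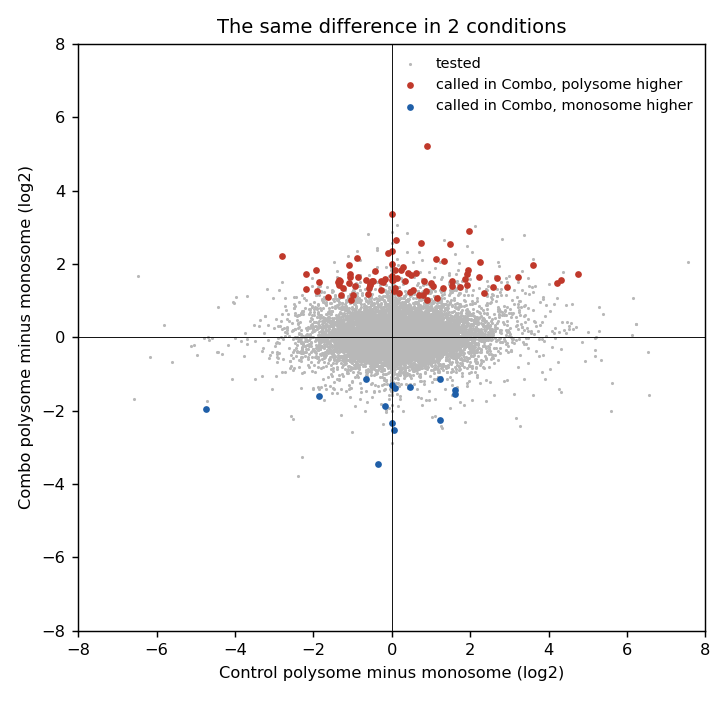
Polysome minus monosome difference (log2) in Combo (vertical axis) against Control (horizontal axis) for the 16691 tested transcripts, in grey, with the 88 Combo polysome calls in red and the 14 Combo monosome calls in blue. The cloud is wider along the Control axis (SD 0.96) than along the Combo axis (SD 0.47), and the red points lie on both sides of 0 in Control.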

How the data were processed

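The deposited table holds TPM for 24 libraries. The authors made these TPM with kallisto on the SL3.1 transcriptome after read filtering (base calls with bcl2fastq 2.20 per the labels), from poly(A)-selected stranded libraries of total RNA and of sucrose gradient fractions. The methods mention read counts and a count model, but the deposited columns hold TPM that sum to the same total in each library, so no count model was run.

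Libraries were divided by factors from an unweighted trimmed mean of log ratios (30% of ratios and 5% of levels trimmed). Testing used limma 3.58.1 (R 4.3.3) for transcripts whose scaled TPM averaged 1 or more across the Combo fractions, on log2(scaled TPM + 1), with one mean per fraction and condition over 16 monosome and polysome libraries, a trended empirical Bayes variance and Benjamini-Hochberg adjustment. Fold changes are on this scale, which understates those of low transcripts. A call needed a log2 difference over 1 and an adjusted p under 0.05. The change in total RNA used all 24 libraries scaled together. In a simulated Combo comparison of 15840 transcripts, of which 200 had a log2 change of 2, 76% were recovered, with 5 false calls.

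Symbols came from a RefSeq names table of assembly SLM_r2.1, which differs from the authors' build, so no coordinates are given. It paired 34881 of 45845 identifiers with a gene, and 1291 of the tested transcripts have a symbol. It has no product names, and a transcript without a symbol is given by its identifier. Overlapping genes, close copies and forms of 1 gene share reads that kallisto divides by estimate. Sequences were not used here, so the part of the naming rule on protein length was not applied. The named transcripts are, in each direction, the 8 called with the largest difference among those with a symbol, a mean of at least 10 TPM and no overlap between fractions, the 4 most abundant called, the 2 most abundant called of each gene list, the 2 with the largest Combo against Control difference, and CBF1, ICE1A, EF-1-alpha and ubi3 (MYB15 and RPL2 were not matched). ERF-H14, ERF-D4, ERF3, loxD, AO, the list members without a call and the transcripts named for their change in total RNA were chosen after their values were seen. The members and lists were chosen with earlier results of these data known. Alternatives covered scaling, pseudocount, level filter, the libraries in the fit, a replicate block, sums per gene and leaving out each library.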

Additional observations from a re-analysis of the deposited data

Results flagged for a closer look

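The polysome minus monosome difference was called as different between Combo and Control, by the interaction term of the limma fit, for 621 transcripts with a higher value in Combo and for 886 with a lower value in Combo. Under the naming rule 4 transcripts stand for them, and each had Control values at or near 0 in one of the fractions.

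MIR6024, the precursor of a microRNA, was listed at 0 in both Control monosome libraries and had 91.8 and 26.7 TPM in the Control polysome libraries, while the Combo values were 54.2 and 29.6 TPM in monosomes and 28.9 and 32.0 TPM in polysomes. Its interaction was -6.92. The transcript NM_001247015.2 of ypt2, a small GTPase gene, had 0.0310 and 0.0256 TPM in Control monosomes and 42.8 and 36.5 TPM in Control polysomes, and its interaction was -6.06. In Combo it had 61.0 and 67.2 TPM in monosomes and 55.2 and 83.2 TPM in polysomes. The other ypt2 form, NM_001311176.1, lay the other way in Control, with 33.2 and 27.2 TPM in monosomes and 0 and 0.0393 TPM in polysomes, and its interaction of 6.14 was not called.

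In the other direction, the transcript XM_019211975.2 of PSY2, a phytoene synthase gene, had 19.3 and 17.0 TPM in Control monosomes and 0.00037 and 0.0674 TPM in Control polysomes, with an interaction of 4.85. The other PSY2 form, NM_001247742.2, lay the opposite way, with 0 and 1.29 TPM in Control monosomes and 23.8 and 21.4 TPM in Control polysomes, and its interaction of -4.28 was called. GGPS, a geranylgeranyl diphosphate synthase gene, had 13.6 and 12.2 TPM in Control monosomes, was listed at 0 and had 0.0588 TPM in Control polysomes, and had an interaction of 4.57. None of these 4 was called in the Combo fractions. Since kallisto can return a value at or near 0 for 1 form of a gene, these sizes depend on the pseudocount and are no bound. Groups of 2 libraries were too small for a search for single libraries that stand apart.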

How the results depend on the processing

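Every called transcript that could be tested kept its direction in each alternative fitted on transcripts, which was close to fixed since the fractions did not overlap in any call. The 102 calls (88 and 14) became 47 (37 higher in polysomes) with only the 4 Combo libraries, and 18 (16 and 2) with only the Combo and Control libraries, a fit chosen after seeing the data. The 14 monosome calls became 6 with a minimum of 10, 7 with the replicate block and 7 with the sum per gene. With TPM as deposited 142 transcripts were called. Without each Combo library in turn the calls ran from 15 to 72, those in polysomes from 12 to 55 and those in monosomes from 3 to 17, and the lowest counts were without Combo monosome replicate 1. The cause was not tested.

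The interaction with Control (1507 calls, 621 higher and 886 lower in Combo) became 956 (393 and 563) with TPM as deposited, 946 (370 and 576) with a minimum of 10 and 689 (287 and 402) with only the Combo and Control libraries. Without single Combo or Control libraries it ran from 658 to 2321, with 312 to 879 higher and 346 to 1469 lower. The median difference of transcripts that rose in total RNA was 0.76 with no filter, which adds low transcripts, and from 0.92 to 1.08 without single libraries. Among gene lists, medians turned sign only in lists close to 0, such as Rubisco and carbon fixation (-0.35 to 0.28). XM_010321718.3 reversed to 0.15 with the sum per gene.

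The replicate block left 74 calls, 70 of them among the 102. Deviations of same-numbered libraries from their group means correlated at 0.04 between the Combo fractions and from -0.19 to 0.13 over 28 pairs of groups. These values show no pairing by number. They cannot tell whether same-numbered libraries came from the same plants, since noise between libraries also gives values near 0. TPM keep no depth, so what depth limits cannot be stated.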
